A study of Mus musculus with 12 samples.

Results

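The genes described here are 39 named genes of the cardiac sarcomere and the Z-disc, the contractile unit of striated muscle and the plate that joins neighbouring units. They were taken as a list of symbols (thin filament, titin, M-band and Z-disc genes), and each matched 1 of the 38293 gene identifiers in the table. Expression was measured by polyA RNA sequencing of pooled mouse ventricles at E15.5, in 4 genotypes with 3 pools of 4 pairs of ventricles each. The Mib1 mutant (Mib1_R530X/Mib1_flox; Tnnt2-Cre/+) carried 1 Mib1 copy with a stop codon and 1 flanked by loxP sites, with Cre under the promoter of Tnnt2, a cardiomyocyte gene that is itself among the 39. The Cre control (Mib1_flox/+; Tnnt2-Cre/+) carried the loxP-flanked allele, a normal allele and the same driver. The triple heterozygote (Mib1_R530X/+; Asxl3_M1415V/+; Apcdd_V150I/+) had 1 copy of each of 3 altered alleles and no Cre, and was set against WT embryos. The genotype label gives the Asxl3 change as M1415V and the design text as M1361V. Tnnt2-Cre recombines the floxed allele in cardiomyocytes, whereas the stop allele was present in every cell type of the Mib1 mutant and of the triple heterozygote. Each library is a pool of embryos, so spread between single embryos was not measured, and whether pools shared litters is not stated.

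In the sarcomere, thin filaments of actin, tropomyosin and troponin slide past thick filaments of myosin, and calcium binding to troponin C starts each contraction. Titin spans from the Z-disc to the M-band and holds the thick filament in place, while alpha-actinin and a set of PDZ-LIM, myozenin and filamin proteins anchor actin and titin at the Z-disc. In the fetal heart several of these proteins are made from an early and a late gene, such as the slow skeletal and the cardiac troponin I genes. Mib1 encodes a ubiquitin ligase that cells presenting Notch ligands need for signalling.

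Estimated reads assigned to genes came to 10103548 to 22157720 per library, the most in triple heterozygote replicate 2. The 39 genes together took 3.34% to 4.33% of the reads. Mib1 was measured at 50.1 to 54.8 CPM (reads scaled to a common library total) in the Mib1 mutant, against 101 to 108 CPM in the Cre control, and at 57.9 to 74.1 CPM in the triple heterozygote, against 126 to 145 CPM in WT. Of the female-specific transcript Xist there were 0.095 CPM in Mib1 mutant replicate 1 and 0.387 CPM in Cre control replicate 1, against 71.5 to 458 CPM in the other 10 pools. For the calls in comparisons that use these pools, the outcome without them is given as well. The first principal component, with 27.2% of the variance, ran from -29.7 to -13.1 in the 6 Tnnt2-Cre pools and from 15.2 to 23.4 in the other 6. A possible difference in the line of mice and the presence of Cre cannot be told apart between these sets.

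Levels can be set beside each other between genes only per length, here as CPM per kilobase of all annotated exons. On this scale Actc1, the cardiac alpha-actin gene, was highest, with a mean of 5293 ± 889 CPM per kilobase in the Mib1 mutant, 6395 ± 470.0 in the Cre control, 6148 ± 319 in the triple heterozygote and 6109 ± 156 in WT (SD, n = 3 each). Tnnc1, cardiac troponin C, came next with 1335 ± 229 CPM per kilobase in the Mib1 mutant, 1402 ± 137 in the Cre control, 1424 ± 126 in the triple heterozygote and 1319 ± 74 in WT. Tnnt2, cardiac troponin T, followed with 576 ± 82.7 in the Mib1 mutant, 688 ± 73 in the Cre control, 739 ± 63.9 in the triple heterozygote and 716 ± 39.6 in WT, but its place depends on the length used. Over the 12 pools Tnnt2 had a mean of 679.6 CPM per kilobase of all exons and 4390.3 CPM per kilobase of its principal transcript, which puts it above Tnnc1. Per kilobase of all exons, Mybpc3, the cardiac myosin-binding protein C gene, stood next below Tnnt2 with 634 CPM per kilobase, within the spread of Tnnt2. Per kilobase of the principal transcript it ranked 9, below Tnni1 (1677 CPM per kilobase), Tpm1 (1628), Tnni3, Csrp3 and Actn2.

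At the low end stood Trim54, a muscle-specific RING finger gene, with 1.27 ± 0.742 CPM per kilobase in the Mib1 mutant, 2.11 ± 0.277 in the Cre control, 1.89 ± 0.999 in the triple heterozygote and 1.97 ± 0.531 in WT. Below it came Xirp2, which encodes an actin-binding protein with Xin repeats, at 0.223 ± 0.0828 in the Mib1 mutant, 0.559 ± 0.0586 in the Cre control, 0.586 ± 0.21 in the triple heterozygote and 0.932 ± 0.23 in WT. The lowest was Myot, the Z-disc gene myotilin, which is known mainly from skeletal muscle. Myot had 0, 4 and 1 reads in the Mib1 mutant pools, 3, 1 and 1 in the Cre control, 4, 3 and 5 in the triple heterozygote and 2, 5 and 4 in WT, where 3 reads correspond to 0.135 to 0.297 CPM. It was the only member not to pass the filter on low counts, which left 38 tested members.

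**Figure D1:**
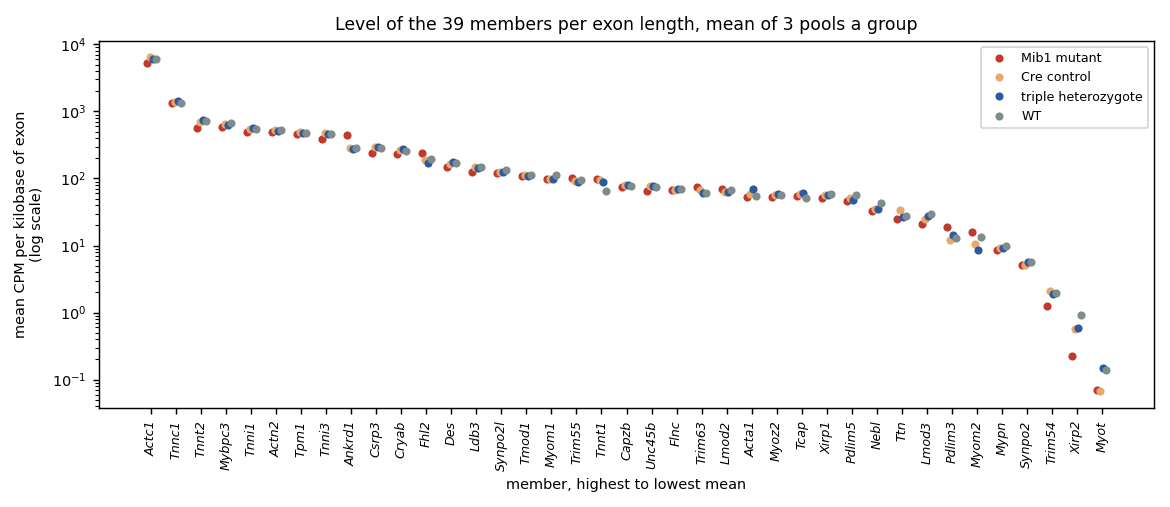
Mean CPM per kilobase of exon (log axis) of the 39 genes, ordered from the highest to the lowest mean of the 12 pools, with 1 point for each group of 3 pools. The level runs from Actc1 near 5986 to Myot near 0.11 CPM per kilobase, and the points of the 4 groups lie close together for most genes, with the widest gaps at Xirp2 and Myot.

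Several counts carry a limit of their own. Estimated reads were not whole numbers in all 12 pools for Actn2 and Tmod1 and in 11 for Acta1. The same held in 9 pools for Actc1, in 7 for Myom2 and in 5 for Nebl. Reads were thus divided between these genes and others of like or overlapping sequence. Exons of Tmod1 overlap Tstd2 on the opposite strand over 1287 bases, those of Unc45b overlap Unc45bos over 255, those of Cryab overlap Hspb2 over 252 and those of Myom1 overlap Myl12a over 207, while Tnni3 shares 86 exonic bases with Dnaaf3 on the same strand. Of these overlapping genes only Tmod1 had estimated reads that were not whole numbers. The library kit keeps strand, but whether the counting used it is not given in the sources used here, so reads in these stretches are uncertain.

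The stretch from 250 bases before to 50 bases after the annotated transcription start was available in RefSeq (GRCm38.p6) for 32 of the 39 genes. It is printed for Pdlim3 (chr8:45885237-45885536, plus strand) and Xirp2 (chr2:67445752-67446051, plus strand), the members that passed the test in the Mib1 mutant, for Ankrd1 (chr19:36119795-36120094, minus strand), whose fold change there was the highest of the members, and for the actin genes Actc1 (chr2:114052826-114053125, minus strand) and Acta1 (chr8:123894726-123895025, minus strand), whose share is compared below. Each is written 5′ to 3′ in the direction of the gene. Capitals mark matches, on either strand, to the CArG box (bound by serum response factor), the MEF2 site and the MCAT motif CATTCC (bound by TEAD factors).
Pdlim3: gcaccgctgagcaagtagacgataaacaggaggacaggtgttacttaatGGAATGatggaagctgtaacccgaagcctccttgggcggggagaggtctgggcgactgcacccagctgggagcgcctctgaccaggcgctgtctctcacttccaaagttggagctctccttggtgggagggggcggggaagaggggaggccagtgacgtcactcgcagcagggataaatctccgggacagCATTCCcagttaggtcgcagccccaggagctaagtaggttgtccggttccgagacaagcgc
Xirp2: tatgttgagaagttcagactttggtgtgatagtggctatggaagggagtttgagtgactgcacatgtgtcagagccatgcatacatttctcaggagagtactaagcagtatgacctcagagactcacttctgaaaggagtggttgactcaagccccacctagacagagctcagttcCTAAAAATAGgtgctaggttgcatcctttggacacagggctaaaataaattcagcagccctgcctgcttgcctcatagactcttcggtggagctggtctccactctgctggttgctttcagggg
Ankrd1: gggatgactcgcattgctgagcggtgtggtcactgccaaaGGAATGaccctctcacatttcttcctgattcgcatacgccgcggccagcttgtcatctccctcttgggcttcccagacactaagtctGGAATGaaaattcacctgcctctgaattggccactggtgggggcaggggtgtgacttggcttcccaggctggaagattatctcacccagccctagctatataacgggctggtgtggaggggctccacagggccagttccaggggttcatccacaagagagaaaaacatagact
Actc1: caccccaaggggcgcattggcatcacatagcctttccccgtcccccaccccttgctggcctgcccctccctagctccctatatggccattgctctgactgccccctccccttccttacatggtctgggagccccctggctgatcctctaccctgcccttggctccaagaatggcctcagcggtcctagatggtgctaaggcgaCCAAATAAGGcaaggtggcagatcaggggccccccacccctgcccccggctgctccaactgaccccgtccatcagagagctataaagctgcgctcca
Acta1: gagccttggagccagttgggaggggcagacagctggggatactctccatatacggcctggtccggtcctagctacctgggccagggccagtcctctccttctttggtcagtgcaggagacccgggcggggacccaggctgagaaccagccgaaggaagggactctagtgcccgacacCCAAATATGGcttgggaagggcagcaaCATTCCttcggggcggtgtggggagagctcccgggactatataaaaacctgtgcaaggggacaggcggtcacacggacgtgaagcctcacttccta

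The Pdlim3 stretch held MCAT letters beginning at position -201 and at -11 relative to the start, and the second overlaps the letters of the RBPJ motif TGGGAA (the DNA-binding partner of Notch) at -9 on the reverse strand. The Ankrd1 stretch held MCAT letters at -210 and -123 and RBPJ letters at -141 and -63, and the Xirp2 stretch a MEF2 site at -74. The Actc1 stretch held a CArG box at -47 and TATA letters (TATAAA) at 33. The Acta1 stretch held a CArG box at -73, RBPJ letters at -61, MCAT letters at -46 and TATA letters at -7. All positions are relative to the annotated start, which was not checked against measured transcription starts. Among the 32 genes, a CArG box occurred in 6 (18.8%, against 1.81% of all 27025 genes in the table), namely Acta1, Actc1, Fhl2, Ldb3, Myom1 and Nebl. Letters of different motifs also overlapped in Ttn (MCAT at 11 and RBPJ at 13), Tnnc1 (MCAT at -58 and RBPJ at -60), Fhl2 (MEF2 at -31 and TATA at -28) and Synpo2 (MEF2 at -236 and TATA at -233). A MEF2 site occurred in 7 (21.9%, against 3.7%), MCAT letters in 13 (40.6%, against 16.6%), RBPJ letters in 13 (40.6%, against 28.3%) and TATA letters (TATAAA) in 8 (25%, against 15.7%). A gene with several annotated starts was counted where any of its stretches matched. These are matches of letters, not measured binding sites.

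In the Mib1 mutant, set against the Cre control, 2 of the 38 tested sarcomere genes passed the test (5.26%, against 1.5% of all 13964 genes tested). Pdlim3, a PDZ-LIM protein that binds alpha-actinin at the Z-disc, rose 1.52-fold, and Xirp2 fell 2.49-fold, where 0.909% of all genes rose and 0.594% fell. In an edgeR fit of only the compared libraries neither gene passed, with 0.687% of all genes called. Ankrd1 and Myom2 had positive values of like size to Pdlim3 without passing, and titin had a negative one. Of the 38 fold changes, 30 were negative (78.9%, against 48.8% of all genes), with a median log2 value of -0.11, against 0.00 for all genes, and the median without Mib1 mutant replicate 1, the lowest pool for most members, is given further on. An unadjusted p under 0.05 was found for 14 of 38 members (36.8%, against 14% of all genes), 5 with higher and 9 with lower values (7.35% and 6.65% of all genes). In bulk tissue, fewer cardiomyocytes and less RNA per cardiomyocyte cannot be told apart.

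Pdlim3 was measured at 83.9, 112 and 91.3 CPM in the 3 Mib1 mutant pools (in the order of replicates 1 to 3, as in all such lists), against 53.9, 69.6 and 65.7 CPM in the Cre control. Every Mib1 mutant pool lay above every Cre control pool. The log2 fold change was 0.60 (SE 0.12), with an adjusted p of 0.0144 (edgeR's quasi-likelihood test, Benjamini-Hochberg adjustment over all genes). The call ended in 3 of 21 other settings, with adjusted p = 0.0739 and 0.0534 when Cre control replicates 1 and 3 were left out in turn and 0.0777 when only the compared libraries were fitted (edgeR). The gene lies at chr8:45885461-45919548 (GRCm38, plus strand).

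Xirp2 had 1.9, 2.33 and 3.79 CPM in the Mib1 mutant, against 5.89, 7.17 and 7.03 CPM in the Cre control, from 20, 25 and 44 reads in the Mib1 mutant and 61, 81 and 104 reads in the Cre control. No pool of the Mib1 mutant reached the lowest of the Cre control. The log2 fold change was -1.32 (SE 0.29, adjusted p = 0.0325 by edgeR's quasi-likelihood test). At these counts the call was not firm. It ended in 9 of 21 other settings (adjusted p 0.0516 to 0.169), among them leaving out Mib1 mutant replicate 1 or 2, any one Cre control replicate, WT replicate 3, or the pools low in Xist. The negative sign was kept in all 21. Xirp1, the related Xin gene, had 271, 299 and 340.5 CPM in the Mib1 mutant and 322, 321 and 341 CPM in the Cre control, with overlapping pools (log2 -0.11, adjusted p = 0.592, edgeR).

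**Figure D2:**
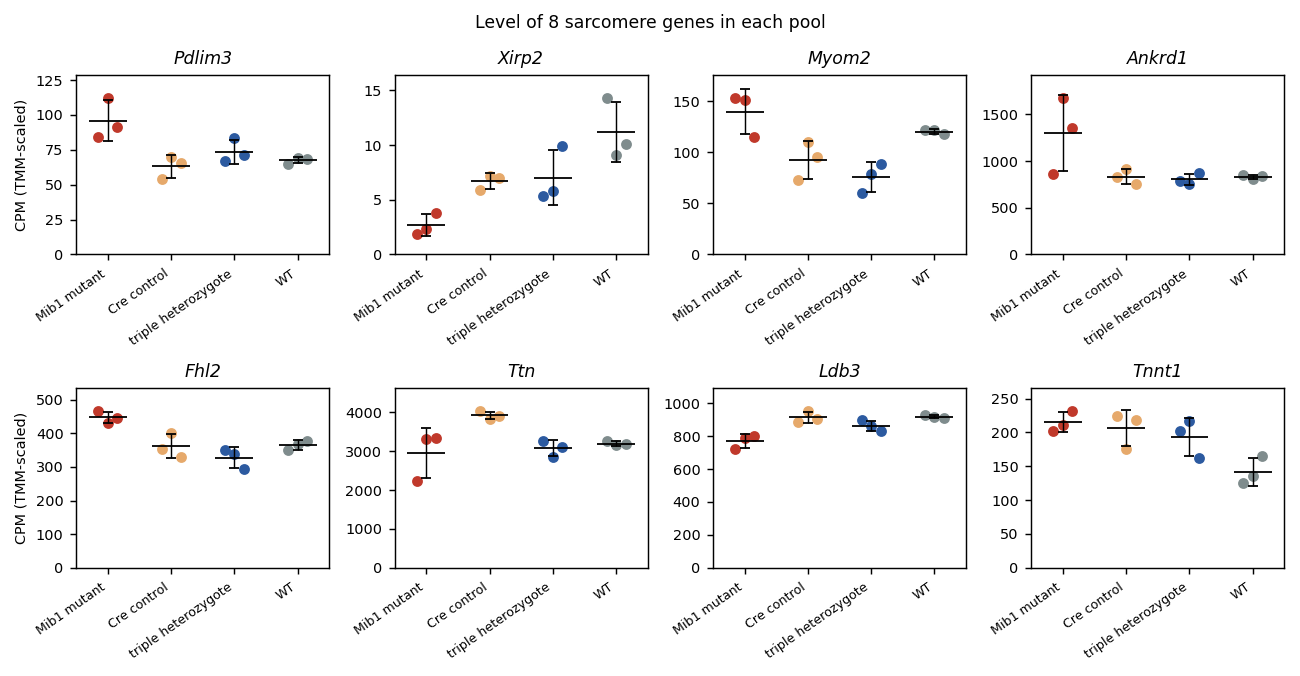
CPM in each pool (points), with the mean and SD of 3 pools (bars), for 8 genes in the Mib1 mutant, Cre control, triple heterozygote and WT, on linear axes from 0. The Mib1 mutant pools lie apart from the Cre control for Pdlim3, Xirp2, Myom2, Fhl2, Ttn and Ldb3, while Ankrd1 is high in 2 of 3 Mib1 mutant pools and Tnnt1 is low in WT.

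Among the 8 thin filament genes, 0 passed the test in the Mib1 mutant, and 7 had values below 0 (median log2 -0.14). Actc1 had 6910.0, 9527 and 9253 CPM in the Mib1 mutant, against 10094, 11203 and 9747 CPM in the Cre control (log2 -0.27, SE 0.10, adjusted p = 0.192, edgeR). Its pools did not overlap, with Mib1 mutant replicate 1 far below the rest and the other Mib1 mutant pools close under the lowest Cre control pool. Tnni3, cardiac troponin I, had 752, 907 and 780.4 CPM in the Mib1 mutant and 902, 1116 and 913 CPM in the Cre control (log2 -0.27, adjusted p = 0.212, edgeR), with 1 overlapping pool. Tnni1, slow skeletal troponin I, had 1700.2, 1829.7 and 1740.4 CPM in the Mib1 mutant, all below the 1884, 2099 and 1905 CPM of the Cre control (log2 -0.16, adjusted p = 0.334, edgeR). Tnnt2 gave a log2 value of -0.26 (adjusted p = 0.253), and Tpm1, tropomyosin, one of -0.06. Tnnt1, slow skeletal troponin T, was the member with a positive value, 0.06, and Acta1, skeletal alpha-actin, and Tnnc1 gave -0.12 and -0.07.

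The 5 genes that cap or set the length of thin filaments also gave 0 calls. Lmod2, leiomodin 2, which lets thin filaments grow at their pointed ends, had 142, 141 and 129 CPM in the Mib1 mutant, against 113, 129 and 125 CPM in the Cre control. These pools did not overlap, although the lowest Mib1 mutant and the highest Cre control pool lay less than 1 CPM apart (log2 0.17, adjusted p = 0.285, edgeR). Lmod3 had 32.8, 55.5 and 50.9 CPM in the Mib1 mutant and 51.1, 61.3 and 55.1 CPM in the Cre control (log2 -0.27). Tmod1, the pointed-end cap, gave -0.04, Capzb, the barbed-end cap subunit, -0.08, and Nebl, nebulette, -0.12.

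Of the 4 titin, thick filament and M-band genes, 0 passed the test in the Mib1 mutant. Ttn, titin, had 2221, 3309.8 and 3335 CPM there, against 4026, 3824 and 3906 CPM in the Cre control. The 3 Cre control pools lay close together and above all Mib1 mutant pools, of which replicate 1 stood far below the others (log2 -0.41, SE 0.11, adjusted p = 0.0935, edgeR). The log2 value was -0.25 without Mib1 mutant replicate 1, -0.50 without replicate 2 and -0.22 without both pools low in Xist. Beside WT, Mib1 mutant replicates 2 and 3 lay above all pools and replicate 1 below all of them. Myom2, an M-band protein that crosslinks thick filaments, had 153, 152 and 115 CPM in the Mib1 mutant, all above the 73.1, 109.8 and 95 CPM of the Cre control (log2 0.59, SE 0.15, adjusted p = 0.0657, edgeR), and gave 0.38 without the pools low in Xist. Its relative Myom1 gave -0.03 and Mybpc3 -0.12.

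The Z-disc group had 11 tested members, with Pdlim3 the 1 call and 10 negative values (median log2 -0.10). Ldb3, which binds alpha-actinin and is also called Cypher, had 723, 788 and 803 CPM in the Mib1 mutant, against 885, 951 and 906 CPM in the Cre control, without overlap (log2 -0.24, SE 0.06, adjusted p = 0.0678, edgeR). Csrp3, muscle LIM protein, had 523, 751 and 619 CPM in the Mib1 mutant and 685, 968 and 741 CPM in the Cre control, with overlapping pools and 1 high Cre control pool (log2 -0.34, adjusted p = 0.239, edgeR). Pdlim5, from the same PDZ-LIM family as Pdlim3, went the other way, with a log2 value of -0.14 (adjusted p = 0.475). Actn2, alpha-actinin 2, gave -0.11, the filamin gene Flnc -0.03, and the titin-cap gene Tcap -0.08. The log2 values of Myoz2, Mypn, Synpo2 and Synpo2l lay between -0.11 and -0.01.

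All 5 members of the Xin, intermediate filament and chaperone group had negative values in the Mib1 mutant, and Xirp2 was the 1 call. Unc45b, the chaperone that folds muscle myosin, had 273, 287 and 311 CPM there, all below the 327, 338 and 360.0 CPM of the Cre control (log2 -0.24, SE 0.07, adjusted p = 0.126, edgeR). Des, desmin, gave -0.14 and Cryab, the small heat shock protein alpha B-crystallin, -0.22, with overlapping pools for both.

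The titin-binding and ubiquitin ligase group was the one whose values were mostly positive, 4 of 5, with 0 calls. Ankrd1, an ankyrin repeat protein that binds titin at the I-band and also enters the nucleus, had 864, 1675 and 1352 CPM in the Mib1 mutant, against 831, 914 and 756 CPM in the Cre control. Replicates 2 and 3 of the Mib1 mutant lay above all 9 pools of the other groups, whereas replicate 1 lay within the Cre control pools (log2 0.64, SE 0.16, adjusted p = 0.0657, edgeR). Without replicate 1 the log2 value was 0.85 and the adjusted p was 0.00054 (edgeR). Without both pools low in Xist it was also 0.85, with adjusted p = 0.00359 (edgeR). Both omissions take out the Mib1 mutant pool with the lowest Ankrd1 level, which by itself raises the value. Over the 21 other settings the log2 value of Ankrd1 ran from 0.41 to 0.85, with 4 calls. The adjusted p ran from 0.00024 to 0.216 (edgeR, DESeq2 or limma-voom). Fhl2, a LIM protein that docks metabolic enzymes on titin, had 465, 432 and 446 CPM in the Mib1 mutant, all above the 355, 399.8 and 329.9 CPM of the Cre control (log2 0.31, SE 0.08, adjusted p = 0.0866, edgeR). The muscle RING finger ligase genes gave 0.14 for Trim55, 0.17 for Trim63 and -0.74 for Trim54, the last with an SE of 0.44 at its low level.

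**Figure D3:**
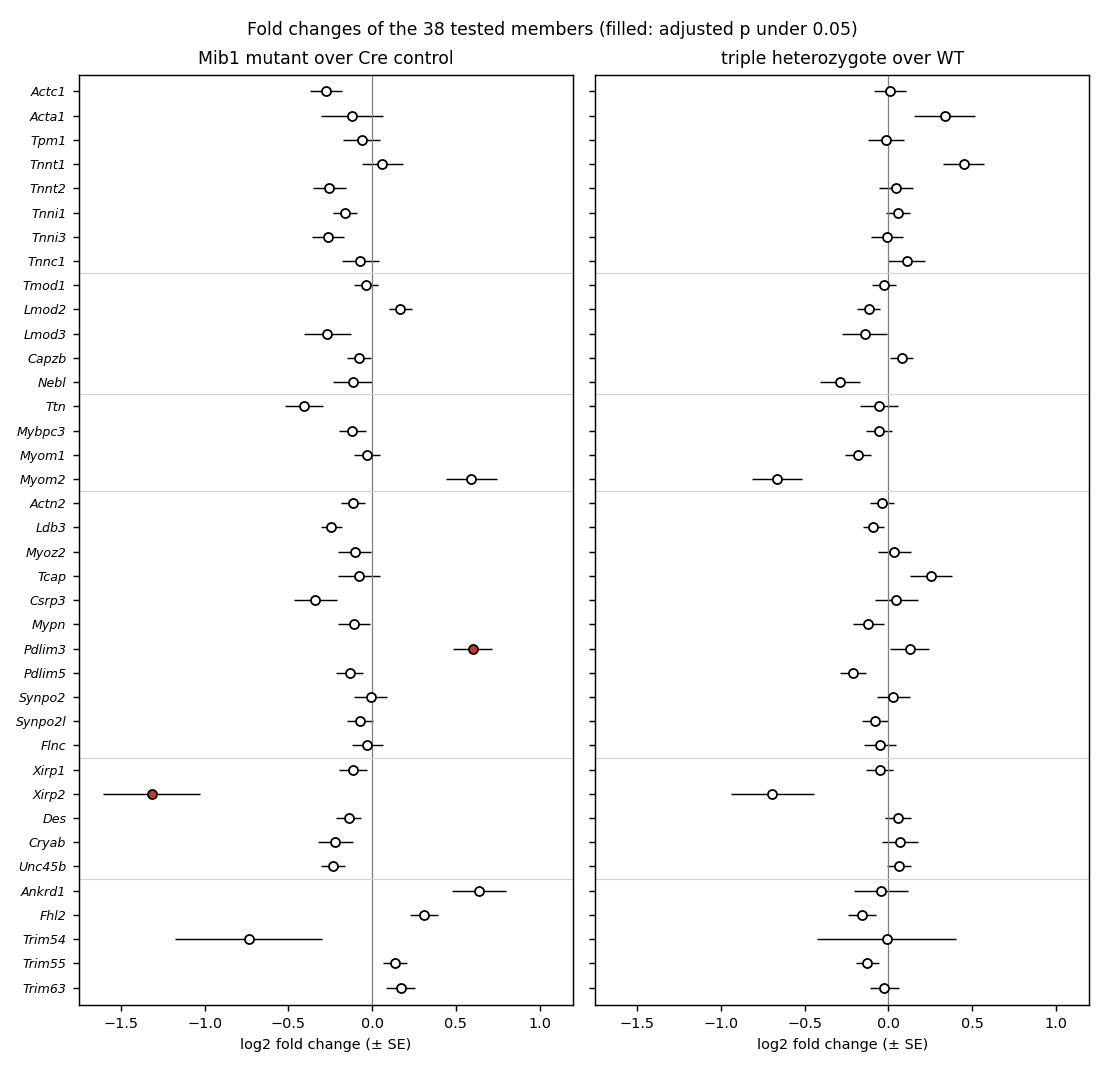
Log2 fold change (points) with its SE (lines) for the 38 tested members, grouped by role, in the Mib1 mutant over the Cre control (left) and the triple heterozygote over WT (right). Filled points passed the test: Pdlim3 at 0.60 and Xirp2 at -1.32 on the left and none on the right, and most left points lie just below 0.

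Pools not overlapping between the Mib1 mutant and the Cre control were found for 11 of the 38 members (28.9%, against 16.6% of all genes), with 5 above the Cre control and 6 below it (8.86% and 7.75% of all genes). The 5 higher were Pdlim3, Myom2, Fhl2, Lmod2 and Trim55, and the 6 lower were Xirp2, Ttn, Ldb3, Unc45b, Actc1 and Tnni1. Mib1 mutant replicate 1 was the lowest of all 12 pools for 24 of the 38 (63.2%, against 16.3% of all genes) and lower than both other Mib1 mutant pools for 29. Its median deviation over the members was -0.24 on the log2 scale, against 0.01 over all genes. Without it, 24 of 38 fold changes were negative, with a median of -0.04, and the calls were Ankrd1 and Pdlim3 (1.14% of all genes were then called). Without replicate 2 the calls were Pdlim3, higher, and Csrp3, Tnnt2 and Ttn, lower (2.93% of all genes), and without replicate 3 they were Myom2, Pdlim3 and Xirp2 (1.18%). Without the pools low in Xist, 26 were negative, with a median of -0.06, and the calls were again Ankrd1 and Pdlim3 (0.78%). DESeq2 called 8 members (2.98% of all genes), Ankrd1, Fhl2, Myom2 and Pdlim3 higher and Ldb3, Ttn, Unc45b and Xirp2 lower.

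**Figure D4:**
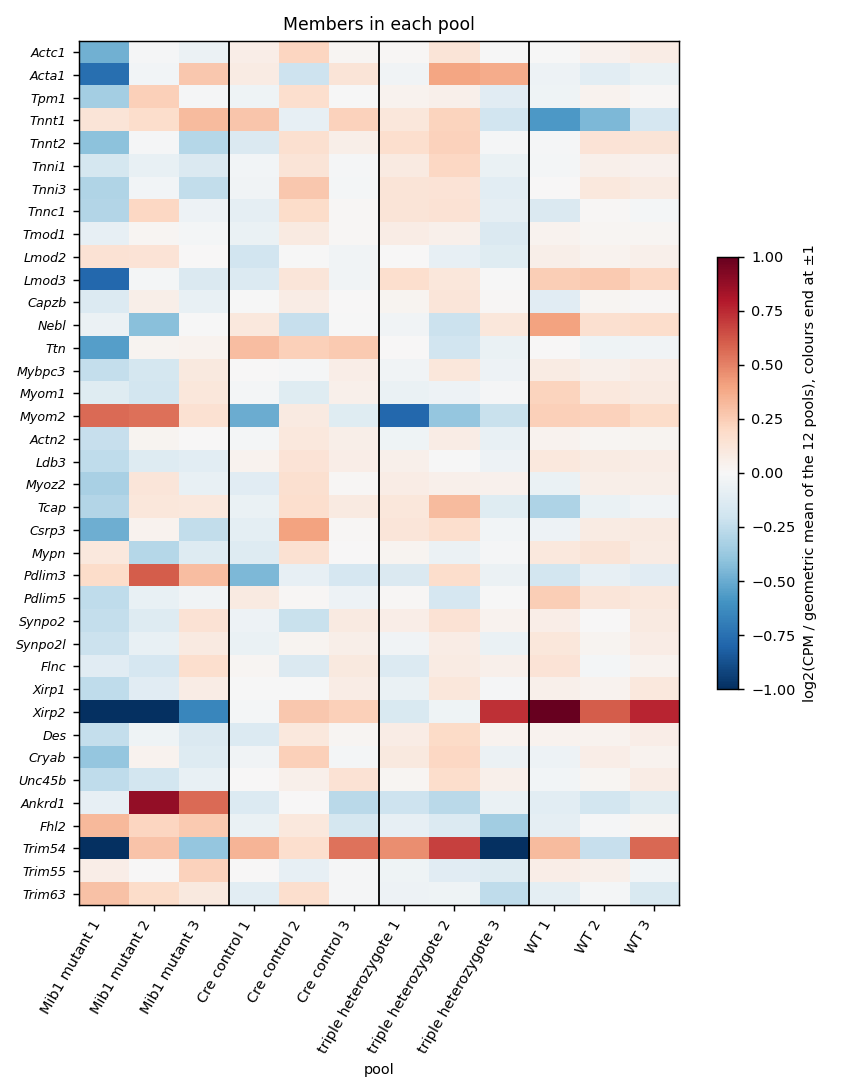
Log2 of the CPM in each of the 12 pools over the geometric mean of the 12, for the 38 tested members (rows, grouped by role), with the colour scale ending at 1 either side of 0. The column of Mib1 mutant replicate 1 is low for most rows and is the lowest of the 12 in 24 of them, and the colours run widest for Xirp2 and Trim54, both low in reads.

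Markers of cardiomyocytes and of other cells were read beside these values, with 1.5% of all genes called. The 12 cardiomyocyte genes outside the sarcomere summed to 9467, 8845 and 10022 CPM in the Mib1 mutant, against 10059, 10609 and 10254 CPM in the Cre control. Of these genes 9 had negative values, 8 with an unadjusted p under 0.05, at a median log2 of -0.23, and 1, Hrc, passed the test. Replicate 1 was the lowest of the 3 Mib1 mutant pools for 5 of the 12, Casq2, Ckm, Ckmt2, Cox6a2 and Hrc, and the lowest of all 12 pools for the same 5. The summed level was lowest in replicate 2, and Atp2a2 made the largest part of it in every Mib1 mutant pool.

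The 7 smooth muscle genes summed to 1329.7, 2108 and 2011 CPM in the Mib1 mutant, against 1539.9, 1499 and 1445 CPM in the Cre control, most of it Acta2. Of these genes 6 had positive values (median log2 0.28), 4 with an unadjusted p under 0.05, and 1, Tagln, passed the test at 1.37, while without the pools low in Xist Acta2, Cnn1 and Tagln passed. The defining gene Myh11 was measured at 0.259 to 1.43 CPM in the Mib1 mutant and 1.69 to 3.72 CPM in the Cre control. The 8 fibroblast genes summed to 4706 to 5850.3 CPM in the Mib1 mutant and 4297 to 4368 CPM in the Cre control, with 8 positive values and 0 called (edgeR; 2 at an unadjusted p under 0.05). The 7 leukocyte genes summed to 41.4 to 56.4 CPM in the Mib1 mutant and 67.6 to 86.2 CPM in the Cre control, with 7 negative values and Lyz2 and C1qb called lower.

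The 8 genes listed as atrial summed to 995 to 1737 CPM in the Mib1 mutant and 1851 to 1903 CPM in the Cre control. Nppa and Myl4 made most of this sum in every pool, whereas Sln had 0.69 to 7.46 CPM over the 12 pools. The sum therefore rests on few genes and is not a measure of atrial cells. Bmp10 (log2 -2.62) and Nppa (-1.41) were called lower, but 5 of the 8 had positive values and 3 negative ones (median log2 0.05). Nppa alone had 175, 481 and 299 CPM in the Mib1 mutant, against 841, 887 and 810 CPM in the Cre control. The 7 erythroid genes summed to 3569.9 to 4859.7 CPM in the Mib1 mutant and 4465 to 5124 CPM in the Cre control, with 6 negative values and 0 called (edgeR; 3 at an unadjusted p under 0.05). The 8 endothelial genes summed to 1027 to 1221 CPM in the Mib1 mutant and 996 to 1142 CPM in the Cre control, with 0 called (edgeR; 1 at an unadjusted p under 0.05). The 15 skeletal muscle genes summed to 14.2 to 23.3 CPM in the Mib1 mutant and 17.8 to 21.4 CPM in the Cre control, with 7 tested and 0 called (edgeR; 2 at an unadjusted p under 0.05), and Myf5 and Pax7 had 0 reads in all 12 pools. Without the pools low in Xist the calls among the cardiomyocyte, leukocyte and atrial genes were the same genes, and 0 fibroblast, erythroid, endothelial and skeletal muscle genes were called (edgeR; 0, 6, 1 and 2 at an unadjusted p under 0.05). The part of these cells in the values above was not tested.

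The triple heterozygote, set against WT, gave 0 calls among the 38 tested members (0.0215% of all genes were called). With edgeR, 6 members had an unadjusted p under 0.05 (15.8%, against 8.66% of all genes), 1 with a higher and 5 with lower values (3.82% and 4.84% of all genes), and DESeq2 called 1, Myom2 (0.158% of all genes). Myom2 had 60.2, 78.9 and 88.7 CPM in the triple heterozygote, all below the 122, 122 and 118 CPM of WT (log2 -0.67, SE 0.15, adjusted p = 0.326, edgeR). The WT pools of this gene were close together. Tnnt1 had 201, 217 and 162 CPM in the triple heterozygote, against 125, 136 and 165 CPM in WT (log2 0.45, SE 0.12, adjusted p = 0.502, edgeR), and the lowest triple heterozygote pool lay below the highest WT pool. Without the filter on low counts, Myom2 and Tnnt1 both passed (0.241% of all genes).

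Markers of other cells were read beside these values as well. Of the 3 genes called in all, 2 were the haemoglobin genes Hba-a1 and Hba-a2, and the 7 erythroid genes all had positive values and summed to 7152 to 8370.1 CPM in the triple heterozygote, against 4396 to 5166 CPM in WT. The 12 cardiomyocyte genes outside the sarcomere summed to 10001 to 10101 CPM in the triple heterozygote, against 11086 to 11482 CPM in WT. These pools did not overlap, with 11 negative values (median log2 -0.16) and 0 called (edgeR; 4 at an unadjusted p under 0.05). The Cre control pools, at 10059 to 10609 CPM, also lay below all WT pools. Against WT the Cre control had 10 negative values (median log2 -0.15) and 0 called (edgeR; 5 at an unadjusted p under 0.05). Smooth muscle genes summed to 1625 to 1783 CPM in the triple heterozygote, against 1555 to 1593 CPM in WT. Genes listed as atrial, again mostly Nppa and Myl4, summed to 2112 to 2259 CPM, against 1723 to 2029 CPM in WT. Leukocyte genes summed to 80 to 84.7 CPM, against 64.2 to 72.8 CPM in WT. Of these lists 0 genes were called (edgeR; 1, 0 and 1 at an unadjusted p under 0.05). Fibroblast, endothelial and skeletal muscle sums overlapped those of WT. The part of all these cells in the members' values was not tested.

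Xirp2 had 5.35, 5.79 and 9.91 CPM in the triple heterozygote and 14.3, 9.09 and 10.1 CPM in WT, from 59, 128 and 100 reads in the triple heterozygote and 165, 108 and 123 reads in WT, with 1 triple heterozygote pool among the WT pools (log2 -0.69, adjusted p = 0.565, edgeR). Pdlim5 had 447, 396 and 444 CPM in the triple heterozygote, all below the 527, 483 and 477 CPM of WT (log2 -0.21, adjusted p = 0.565, edgeR). Pools did not overlap for 10 members (26.3%, against 16.9% of all genes). Acta1 was higher in the triple heterozygote, and Ldb3, Lmod2, Lmod3, Myom1, Myom2, Mypn, Nebl, Pdlim5 and Trim55 were lower (7.67% and 9.19% of all genes lay apart in these directions). The median log2 fold change of the 38 was -0.02, and 23 were negative (60.5%, against 50%). Pdlim3, with 66.7, 83.2 and 70.9 CPM in the triple heterozygote and 64.9, 69.5 and 68.3 CPM in WT, and Ankrd1, with 792, 757 and 870.3 CPM in the triple heterozygote and 850.4, 804 and 838 CPM in WT, overlapped between these groups.

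The effect in the Mib1 mutant was then compared with that in the triple heterozygote, as the difference between the 2 log2 fold changes. Of the 38 members, 1 passed this test (2.63%, against 0.516% of all genes, 0.322% in the positive direction), and it was Myom2, at 1.26 (SE 0.21, adjusted p = 0.0151, edgeR). Its levels were above the control in 3 of 3 Mib1 mutant pools and below it in 3 of 3 triple heterozygote pools. The Cre control pools of Myom2 all lay below the WT pools, and the Mib1 mutant pools overlapped those of WT. The means were 15.8 CPM per kilobase of exon in the Mib1 mutant, 10.5 in the Cre control and 13.6 in WT. The call ended without triple heterozygote replicate 2 (adjusted p = 0.0523), without WT replicate 2 (0.0505) and without the pools low in Xist (0.068, log2 1.03), all by edgeR. An unadjusted p under 0.05 was found for 9 members (23.7%, against 13.8% of all genes), and 25 differences were negative (65.8%, against 50.3%). For the other members with the smallest p, the difference was 0.47 for Fhl2 (adjusted p = 0.114), 0.68 for Ankrd1 (0.235) and -0.30 for Unc45b (0.24), by edgeR. Fhl2 had 351, 338 and 292 CPM in the triple heterozygote and 349.6, 369 and 377 CPM in WT, and Unc45b had 331, 368 and 339 CPM in the triple heterozygote and 319.6, 331 and 344 CPM in WT. For the 2 genes called in the Mib1 mutant the difference did not pass, at 0.47 (SE 0.16, adjusted p = 0.252, edgeR) for Pdlim3 and -0.62 (SE 0.38, adjusted p = 0.474, edgeR) for Xirp2, so neither change was shown to be particular to the Mib1 mutant.

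The Cre control and WT differ by 1 floxed Mib1 allele and by Tnnt2-Cre, and may also differ in the line of mice. These cannot be told apart. Of the 38 members 0 passed the test (0.279% of all genes did), with edgeR giving 6 at an unadjusted p under 0.05 (15.8%, against 8.43% of all genes) and DESeq2 calling 1, Tnnt1 (0.587% of all genes). Without the pools low in Xist 0 members passed by edgeR as well, at 0.319% of all genes. Tnnt1 had 225, 176 and 218 CPM in the Cre control, all above the 125, 136 and 165 CPM of WT (log2 0.54, SE 0.12, adjusted p = 0.107, edgeR). Ttn had 4026, 3824 and 3906 CPM in the Cre control, all above the 3261, 3148 and 3177 CPM of WT (log2 0.29, SE 0.11, adjusted p = 0.502, edgeR), and it passed without Mib1 mutant replicate 1 (adjusted p = 0.0328) and when only the compared libraries were fitted (0.00948), both by edgeR.

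Xirp2 had 5.89, 7.17 and 7.03 CPM in the Cre control, all below the 14.3, 9.09 and 10.1 CPM of WT (log2 -0.73, adjusted p = 0.414, edgeR), and Myom2 gave -0.38 (adjusted p = 0.517). Pools did not overlap for 9 members (23.7%, against 19.1% of all genes), with Tnnt1 and Ttn higher in the Cre control and Lmod2, Lmod3, Myom1, Myom2, Nebl, Pdlim5 and Xirp2 lower (8.9% and 10.2% of all genes lay apart in these directions). Of the 38 log2 values, 20 were negative (52.6%, against 50.4%), with a median of -0.01. The Cre control pools also served the Mib1 mutant comparison and the WT pools that of the triple heterozygote, so the values are given side by side without a test of likeness.

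Troponin I and striated alpha-actin are each made from a pair of genes whose balance shifts as the heart matures, and the share of each pair was compared per kilobase of exon. Tnni3 took 43.5, 46.4 and 43.9% of the Tnni1 and Tnni3 sum in the Mib1 mutant, against 45.5, 48.1 and 45.6% in the Cre control. The mean share was 44.6 ± 1.55% for Mib1 mutant pools, against 46.4 ± 1.5% for Cre control pools (SD, n = 3 each), with an exact permutation test of p = 0.3, two-sided, where 3 pools against 3 cannot go below 0.1. In the triple heterozygote Tnni3 took 46.3, 44.4 and 44.9%, against 46, 46.6 and 46.3% in WT (exact permutation p = 0.2). Without the pools low in Xist the Mib1 mutant minus Cre control difference was -1.7 percentage points, against -1.79 with them. Between the Cre control and WT the means differed by 0.107 percentage points (exact permutation p = 1).

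Acta1 was the minor gene of its pair. It took 0.798, 0.957 and 1.2% of the Acta1 and Actc1 sum in the Mib1 mutant and 0.972, 0.721 and 1.04% in the Cre control (exact permutation p = 0.8). In the triple heterozygote its share was 0.933, 1.16 and 1.25%, all above the 0.931, 0.869 and 0.875% of WT though replicate 1 lay close to the highest WT pool, a mean difference of 0.22 percentage points at the smallest p that the exact permutation test can give, 0.1. The mean share was 0.911% in the Cre control and 0.892% in WT (exact permutation p = 0.9). Over the 6 tests of shares, the lowest Benjamini-Hochberg adjusted p was 0.6 (exact permutation). Skeletal muscle markers summed to 20.1 to 48.1 CPM in the triple heterozygote and 19.4 to 21 CPM in WT, and their part in the share was not tested.

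**Figure D5:**
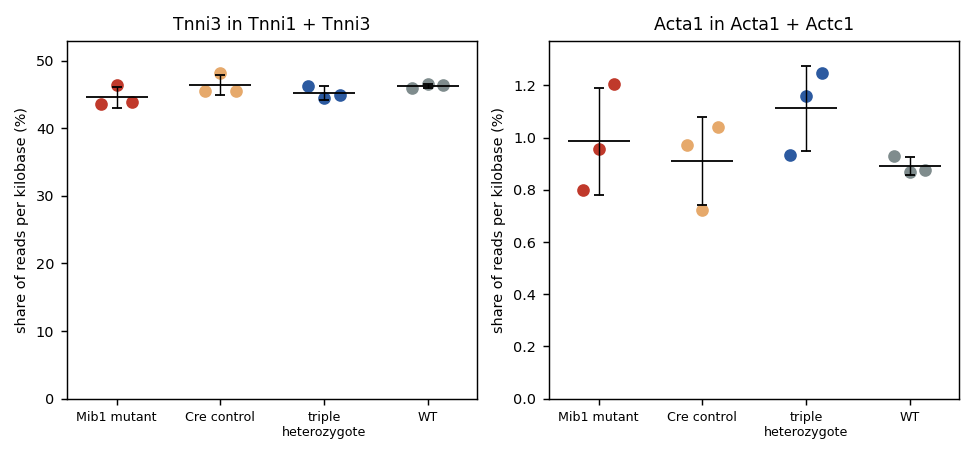
Share of reads per kilobase (percent) taken by Tnni3 in the sum of Tnni1 and Tnni3 (left) and by Acta1 in the sum of Acta1 and Actc1 (right), with points for the pools and bars for the mean and SD of 3 pools a group. Tnni3 lies between 43.5% and 48.1% in all 12 pools, and Acta1 between 0.721% and 1.25%, with the triple heterozygote pools above those of WT.

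The remaining genes of the sarcomere and its costameres, and the factors that control them, were read in the same fit. Of 10 myosin heavy and light chain genes, 1 passed in the Mib1 mutant (1.5% of all genes), and it was lower. Myh7b, a slow-type myosin heavy chain gene, had 63, 76.1 and 69.2 CPM in the Mib1 mutant, all below the 94.2, 122 and 98 CPM of the Cre control (log2 -0.59, SE 0.12, adjusted p = 0.0233, edgeR). Its WT pools had 63.6, 72.1 and 84.1 CPM, overlapping those of the Mib1 mutant. Of 40 other sarcomere and costamere genes, 38 were tested and 3 passed, all higher in the Mib1 mutant (0.909% of all genes), and their median log2 value was 0.03. These were cysteine-rich LIM proteins and a further PDZ-LIM protein. Csrp1 had 316, 280.4 and 297 CPM in the Mib1 mutant, against 237, 209.9 and 216 CPM in the Cre control (log2 0.43, SE 0.08, adjusted p = 0.00988, edgeR). Its WT pools had 289, 262 and 254 CPM, above the Cre control and overlapping the Mib1 mutant.

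Csrp2 had 146, 194 and 161 CPM in the Mib1 mutant, against 114, 123 and 113 CPM in the Cre control (log2 0.52, SE 0.10, adjusted p = 0.0105, edgeR), with 114, 127 and 121 CPM in WT. Pdlim1 had 122, 125 and 122 CPM in the Mib1 mutant, against 95.4, 95.4 and 91.6 CPM in the Cre control (log2 0.39, SE 0.07, adjusted p = 0.0132, edgeR), with 86.4, 96.3 and 93.9 CPM in WT. All 3 genes had every Mib1 mutant pool above every Cre control pool, as Pdlim3 had. Csrp1, Csrp2 and the PDZ-LIM genes are also made outside cardiomyocytes, Csrp1 and Csrp2 in smooth muscle. In the same comparison 6 of the 7 smooth muscle markers given above had positive values. The other was the defining gene Myh11, at 0.259 to 1.43 CPM in the Mib1 mutant, against 1.69 to 3.72 CPM in the Cre control. The part of smooth muscle cells in these values was not tested. Of 13 transcription regulators of muscle genes, 1 passed (1.5% of all genes). Tbx20, a T-box factor of the developing heart, had 670.3, 671 and 638 CPM in the Mib1 mutant, all above the 550.2, 514 and 522 CPM of the Cre control (log2 0.32, SE 0.07, adjusted p = 0.0251, edgeR), with 514, 502 and 530.4 CPM in WT. Without the pools low in Xist, Csrp1 and Csrp2 were called and Myh7b, Pdlim1 and Tbx20 were not (adjusted p = 0.105, 0.103 and 0.112, edgeR), at log2 values of -0.60, 0.40 and 0.33. In the triple heterozygote against WT, in the difference between effects, and in the Cre control against WT, edgeR called 0 genes of these 3 lists.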

How the data were processed

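PolyA RNA of 12 ventricle pools was sequenced with single reads of 60 bases. The submitters' processing notes name RSEM, cutadapt, limma, bcl2fastq 2.20.0.422 and the build GRCm38. No aligner or annotation release is named in what was used here. The authors deposited expected counts from RSEM, which are estimates (9.64% were not whole numbers) and are not scaled for depth. Columns were matched to samples by name. Those called mutant name neither flox nor Cre and were taken as the triple heterozygote, an inference from names. GENCODE M21 gave symbols, lengths and positions for 36429 identifiers.

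After rounding, edgeR 4.0.16 was run in R 4.3.3 (quasi-likelihood test, two-sided, TMM scaling, filterByExpr, 13964 genes with 99.9% of counts kept). All 12 libraries entered 1 fit of 4 groups, with a common biological coefficient of variation of 0.0982 and 8 residual degrees of freedom. Benjamini-Hochberg adjustment was over the whole table, and genes under 0.05 were called. Each SE is the log2 fold change over the square root of its F statistic. CPM uses TMM-scaled totals, and 1 read is 0.0451 to 0.099 CPM before scaling. DESeq2 1.42.0, limma-voom (limma 3.58.1), other scalings and filters, a replicate block, a fit of only the compared libraries and each pool left out were alternatives. The per-transcript share was added after the data were seen. Between replicates of a group the counts differed beyond sampling noise, at a chi-square per degree of freedom of 2.06 to 13.7. The spread was unequal, at 2.06 to 4.28 between WT pools and 7.55 to 13.7 between Mib1 mutant pools, whereas the fit shared its estimate over all groups. The procedure was tested on simulated counts.

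The members and lists were chosen with earlier results of these data known. Members named with all pools are those called, the 4 with the smallest p per contrast, the 3 highest and 3 lowest per kilobase and the share genes. Of the other lists, called genes are named. Others were named after their values were seen.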

Additional observations from a re-analysis of the deposited data

Results flagged for a closer look

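Myom2 was marked because its effect differed between the genotype pairs by a test of the difference itself. Its log2 fold change was taken in the Mib1 mutant over the Cre control and in the triple heterozygote over WT. The difference between these was 1.26 (SE 0.21, adjusted p = 0.0151, edgeR). All 3 pools lay above the control in one pair and all 3 below it in the other. The Cre control pools all lay below WT, however, and the Mib1 mutant pools overlapped those of WT. Leaving out triple heterozygote replicate 2, WT replicate 2 or the pools low in Xist ended the call.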

How the results depend on the processing

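Among the members named in a contrast, 332 alternative values were computed, of which 296 kept their direction and side of the threshold, 15 kept the direction and lost the threshold, 21 gained it, and 0 turned. These members were chosen by their p. For a comparison between a pair of groups, some alternatives left out a pool of neither group, which could barely move the fold change. The 296, and the counts out of 21 settings given above, therefore overstate how firm the values are. In the Mib1 mutant the 2 calls (1.5% of all genes called) became 6 without a filter on low counts (2.13%), 8 with DESeq2 (2.98%), 1 with limma-voom (1.49%) and 0 in a fit of only the compared libraries (0.687%), and leaving out 1 pool gave 0 to 4. In the triple heterozygote the 0 calls became 2 without a filter (0.241%) and 1 with DESeq2 (0.158%), and stayed at 0 with any pool left out. For the difference between effects the 1 call (0.516%) became 2 without a filter (1.1%) and 2 with DESeq2 (1.2%), and 0 to 2 with a pool left out. In the Cre control against WT the 0 calls became 1 without a filter (0.644%), with DESeq2 (0.587%) and in a fit of only the compared libraries (0.501%), and 0 to 1 with a pool left out. The cause of these moves was not tested.

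Pools of the same replicate number correlated at 0.01 to 0.17 between the Mib1 mutant and the Cre control. The values were -0.06 to 0.09 between the triple heterozygote and WT, and -0.09 to 0.06 between the Cre control and WT. In these comparisons 4, 2 and 2 of 6 pools correlated best with their own number. Replicate 1 was the pool low in Xist in both the Mib1 mutant and the Cre control. Whether the numbers pair the pools was not settled by these values. With the replicate number as a block, 3 members were called in the Mib1 mutant, with Myom2 (adjusted p = 0.0416, edgeR) added to Pdlim3 and Xirp2, and 1, 0 and 0 in the difference, the triple heterozygote and the Cre control.

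The small differences in share turned. For Tnni3 the Cre control minus WT difference ran from -0.76 to 0.552 percentage points with 1 pool left out. For Acta1 the Mib1 mutant minus Cre control difference ran from -0.033 to 0.169, and the Cre control minus WT difference from -0.045 to 0.114, with -0.012 without the pools low in Xist. Xirp2, Trim54 and Myot have few reads, and depth limits what can be seen of them.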
